A study of Homo sapiens and Mus musculus with 12 samples.

Results

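Germ-line and meiosis genes are silenced in nearly all somatic tissues, and 45 of them, taken by symbol from a list of genes known as targets of H3K9me2 silencing or of germ cells, were read in natural killer (NK) cells whose histone methyltransferase EHMT2 was inhibited or deleted. The human table lists 23 of the 45 among its 18304 genes, and the mouse table lists 44 of the 45 among its 22021 genes. The list holds genes of germ cell identity, the synaptonemal complex, meiotic cohesin, meiotic recombination and the piRNA pathway, with further testis-expressed genes. In NK92MI cells edgeR called 4 of the 14 members tested higher with the EHMT2 inhibitor, DMC1, DDX4, STAG3 and TKTL1, and 0 lower. At those thresholds, given below, it called 6.24% of all genes higher and 5.43% lower. TKTL1 had enough counts to be tested only in the treated libraries, the group in which it is high. In mouse NK cells edgeR called none of the 21 members tested at the same thresholds after deletion of Ehmt2, where it called 0% of all genes. At a looser adjusted p of 0.05 it called Spo11 higher, where 2.82% of all genes were called higher. DESeq2 called Spo11 higher at both, and at the first thresholds it called 2.44% of all genes higher.

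Poly(A) RNA was sequenced from 4 groups of 3 libraries. BIX libraries came from NK92MI, an established human NK cell line that supplies its own interleukin-2, treated with BIX-01294, a small-molecule inhibitor of EHMT2 and its partner EHMT1, and DMSO libraries came from the same line with the solvent. The study's other assays on this line used 0.25 μM BIX-01294 for 5 days, and the dose and time for the sequenced cells were not given in the sources used here. KO libraries came from NK cells sorted as CD3-NK1.1+ from spleens of C57BL/6J mice that were Ehmt2 flox/flox and carried Ncr1-iCre, which deletes the gene from the stage at which NK cells switch on Ncr1, and WT libraries came from Ehmt2 flox/flox mice without the Cre, so both groups carry the floxed alleles. The mice were 8 to 12 weeks old, and WT and KO were matched for age and sex. The labels do not say whether the libraries of a group came from separate cultures or animals, so p-values measure the spread between these libraries only, which may be technical.

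EHMT2 (also called G9a) and EHMT1 place 1 or 2 methyl groups on lysine 9 of histone H3, a mark of silent chromatin. Promoters of many germ-line genes are rich in CpG and are kept silent in somatic cells by several layers at once, namely the E2F6, MGA and PCGF6 complex that binds E2F and E-box motifs, H3K9me2 from EHMT2 and EHMT1, and DNA methylation. In embryonic stem cells that lack EHMT2 or EHMT1, germ-line genes are a classic group of derepressed genes, and the comparisons below ask whether the same genes rose in NK cells.

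Library totals lay between 16579469 and 17165446 counts in human and between 25891680 and 37438868 in mouse, where WT replicate 2 was the shallowest. A count of 3, taken as the floor, corresponds to 0.177 CPM (counts scaled to a common library size) in human and to 0.0855 CPM in mouse, at the mean depth of each table. The targeted gene was checked first. Ehmt2 read 171, 143 and 137 CPM in KO against 275, 284 and 285 CPM in WT, a log2 fold change of -0.91 ± 0.10 (SE; edgeR's quasi-likelihood test, adjusted p = 0.0162). These are RNA counts over the whole gene. By Western blot the study reports complete loss of Ehmt2 and reduced H3K9me2 in splenic NK cells of KO mice. EHMT2 read 40.4, 39.3 and 35.8 CPM with BIX-01294 and 57.1, 61.6 and 54.3 CPM with DMSO, a log2 fold change of -0.58 ± 0.08 (edgeR, adjusted p = 0.000101), although the compound acts on the enzyme and not on its gene. NK markers identified both sources. NK92MI expressed NCAM1 at 323 to 374 CPM and also CD3E at 486 to 591 CPM, while sorted mouse cells expressed Ncr1 at 333 to 583 CPM.

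Mouse libraries also differed in other cell types' transcripts. Summed over 10 NK markers, KO read 9660 to 11309 CPM and WT 5128 to 8657 CPM, and all 10 markers had positive log2 fold changes with a median of 0.76. All 6 tested markers each of B cells, neutrophils and erythroid cells and all 8 of macrophages and monocytes had negative ones. Their sums in KO and WT were 84.3 to 425 against 463 to 1310 CPM for B cells, 1.78 to 70.4 against 62.2 to 644 CPM for neutrophils, 115 to 143 against 259 to 412 CPM for erythroid cells, and 1299 to 2322 against 2353 to 5506 CPM for macrophages and monocytes. T cell markers overlapped, at 92.2 to 194 CPM in KO and 139 to 235 CPM in WT. Germ cell markers (Ddx4, Dazl, Sycp3, Prm1 and Tnp1) summed to at most 0.647 CPM in any mouse library, with Prm1 and Tnp1 at 0 in all 6. As these are bulk samples, fewer cells of a type cannot be told apart from less RNA per cell. In human, the neutrophil and erythroid markers that are listed summed to at most 0.757 and 1.06 CPM. B cell markers summed to 38.7 to 43.0 CPM with BIX-01294 and 36.1 to 40.6 CPM with DMSO, with PAX5 at a log2 fold change of 0.86 and IGHM at -0.62 (edgeR, adjusted p = 2.6e-05 and 0.00182). Macrophage and monocyte markers summed to 4.19 to 5.18 against 2.34 to 3.49 CPM, with CSF1R at 0.74 (edgeR, adjusted p = 0.0186). PRM1 and TNP1 are not listed, and the summed level of 12 NK markers was itself higher with BIX-01294, at 7017 to 8759 CPM against 5266 to 5653 CPM. Of the 12 NK markers 8 had positive log2 fold changes, GZMA among them at 0.91, and 4 had negative ones. The negative ones were TBX21 at -0.46, NCR1 at -0.35, EOMES at -0.17 and IL2RB at -0.16.

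A member was tested where its counts passed edgeR's filter on low counts, which asks for about 10 counts in at least 3 libraries. The call asked for an adjusted p, over the whole table, below 0.01 and a log2 fold change beyond 0.5 in either direction. Of the 23 human members listed, 14 passed the filter, 11 of them through both groups and 3 (TKTL1, SMC1B and TAF7L) only through BIX. Called higher were 4 members, where 6.24% of the 12727 genes tested were called higher. Called lower were 0, where 5.43% of all genes were called lower, and DESeq2 and limma-voom also called 0 lower. At an unadjusted p under 0.05 in edgeR, 5 were higher and 0 lower, where 22.9% and 23.2% of all genes were. The 3 members admitted only through BIX were unlikely to be lower from the outset, so these tallies are a description only. With the adjusted p relaxed to 0.05 and the same fold threshold, 5 members were higher and 0 lower, where 7.57% and 7.34% of all genes were. Every library of one group lay above every library of the other for 6 members higher with BIX and 1 member lower, against 24.1% and 23.9% of all genes tested. Among those higher, TKTL1 and SMC1B passed the filter only through BIX. Over the 11 members that passed the filter through both groups, 3 of them called, the median log2 fold change was 0.32, and that of all genes tested was -0.01.

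**Figure D1:**
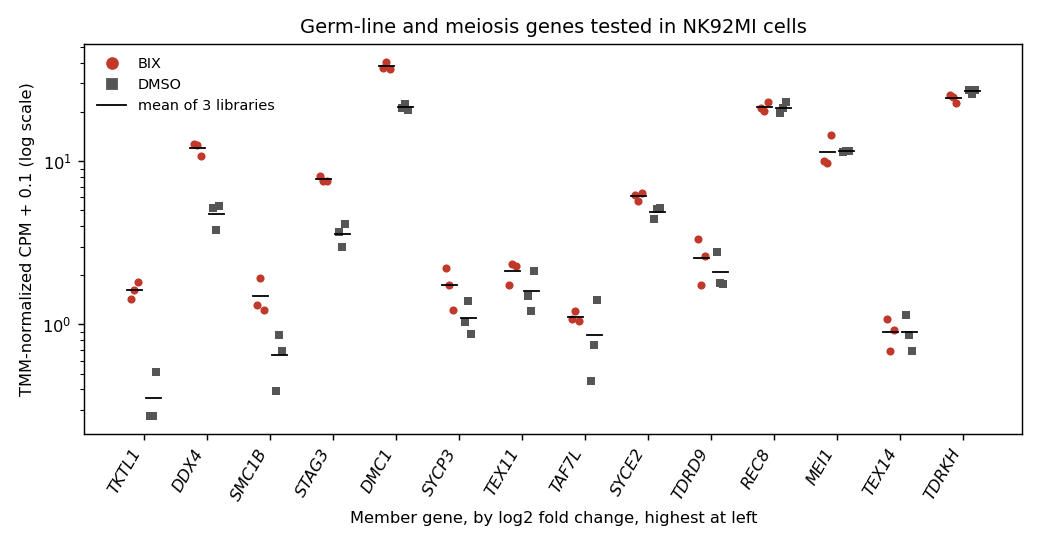
Level of each of the 14 tested members in NK92MI cells, as TMM-normalized CPM plus 0.1 on a log scale, ordered by log2 fold change. Circles are the 3 BIX libraries, squares the 3 DMSO libraries and lines their means, and the circles lie clear above the squares for TKTL1, DDX4, SMC1B, STAG3, DMC1 and SYCE2.

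The promoters of the 4 members that rose are given here because DNA rich in CpG and the motifs of the silencing complex are the features such genes are known to share. Windows of 300 bases, from 250 before to 50 after the start, are from RefSeq on GRCh38.p14, printed on the gene's strand, with E2F (GCGGGA) and E-box (CACGTG) matches on either strand in capitals and all other bases in lower case. The motifs do not overlap in these windows. For DDX4 the RefSeq entry begins 28868 bases downstream of the GENCODE gene start and holds 1 CpG, so the window at the GENCODE start was read from the GRCh38 genome instead, a choice made after both were seen.

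DMC1, chr22:38570134-38570433, minus strand: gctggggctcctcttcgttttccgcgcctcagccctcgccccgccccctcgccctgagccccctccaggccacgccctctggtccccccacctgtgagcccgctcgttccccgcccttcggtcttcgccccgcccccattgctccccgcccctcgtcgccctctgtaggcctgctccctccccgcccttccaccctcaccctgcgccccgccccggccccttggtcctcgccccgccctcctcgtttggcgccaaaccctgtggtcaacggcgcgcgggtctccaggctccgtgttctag
DDX4, chr5:55737767-55738066, plus strand: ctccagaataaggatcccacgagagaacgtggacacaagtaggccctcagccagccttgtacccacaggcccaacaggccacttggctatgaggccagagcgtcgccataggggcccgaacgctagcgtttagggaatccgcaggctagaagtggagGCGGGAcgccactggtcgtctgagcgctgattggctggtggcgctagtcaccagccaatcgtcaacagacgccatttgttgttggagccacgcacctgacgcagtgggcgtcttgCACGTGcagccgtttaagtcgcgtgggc
STAG3, chr7:100177474-100177773, plus strand: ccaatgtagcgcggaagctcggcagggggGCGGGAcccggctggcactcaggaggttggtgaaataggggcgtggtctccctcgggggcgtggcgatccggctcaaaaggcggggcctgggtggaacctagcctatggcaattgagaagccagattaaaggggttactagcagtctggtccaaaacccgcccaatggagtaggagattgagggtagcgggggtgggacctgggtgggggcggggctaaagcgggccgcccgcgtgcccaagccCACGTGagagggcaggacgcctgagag
TKTL1, chrX:154295545-154295844, plus strand: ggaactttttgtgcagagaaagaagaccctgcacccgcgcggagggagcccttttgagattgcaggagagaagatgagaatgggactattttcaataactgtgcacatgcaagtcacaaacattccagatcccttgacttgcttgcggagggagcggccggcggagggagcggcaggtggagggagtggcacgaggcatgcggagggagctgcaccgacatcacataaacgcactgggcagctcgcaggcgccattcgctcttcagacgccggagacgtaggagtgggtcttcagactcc

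These windows hold 29 CpG in DMC1, 22 in DDX4, 20 in STAG3 and 18 in TKTL1. The E2F match begins 93 bases before the start in DDX4 and 221 bases before it in STAG3, and the E-box match begins 22 and 23 bases after the start in DDX4 and STAG3. DMC1 and TKTL1 hold neither string, which says only that these letters are not in these windows. RefSeq entries were found for 39 of the 45 members. Their ratio of observed to expected CpG exceeded 0.6 in 31 of the 39 (79.5%), beside 48.8% of 35116 promoters in the table. GCGGGA was found in 21 of the 39 (53.8%) and in 26.9% of all promoters, and CACGTG in 5 (12.8%) and in 7.26% of all promoters. Each member entered with a single entry, while all promoters entered with every entry. Median GC content was 64.7% for the members and 58.7% for all promoters, and the shares were not adjusted for it. For DDX4 these tallies used the RefSeq entry, with a CpG ratio of 0.12 and neither string, and not the window printed above. Among the 20 entries of members not listed in the human table, 15 exceeded the CpG ratio and 8 held GCGGGA. These are counts of strings and not of bound sites.

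DDX4, the RNA helicase VASA that marks germ cells (chr5:55738017-55817157 on GRCh38), read 12.6, 12.5 and 10.6 CPM with BIX-01294 and 5.06, 3.68 and 5.21 CPM with DMSO. Both groups expressed it, and the lowest BIX library lay above the highest DMSO library. The log2 fold change was 1.35 ± 0.16 (SE), 2.56-fold, with an adjusted p of 2.3e-05 in edgeR's quasi-likelihood test. SLC38A9, which lies on the opposite strand across DDX4 without sharing exon bases in the annotation, had a log2 fold change of 0.41 ± 0.07, and the strand setting of the counting is not given in the sources used here. DAZL, STRA8, BOLL and SOHLH2, which act in germ cell commitment and translation, are not listed in the human table.

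DMC1, the recombinase that carries out strand exchange in meiosis (chr22:38518948-38570204), read 37.0, 40.7 and 36.9 CPM with BIX-01294 and 21.2, 22.5 and 20.4 CPM with DMSO. It was expressed in untreated NK92MI cells too, and the groups were apart. The log2 fold change was 0.84 ± 0.09, 1.79-fold (edgeR, adjusted p = 9.89e-06). Per kilobase of exon, DMC1 stood at 13.0 CPM with BIX-01294 and 7.25 CPM with DMSO, against 3.11 and 1.21 CPM for DDX4. Among the other recombination genes MEI1, needed for double-strand breaks, read 9.99, 9.64 and 14.5 CPM against 11.2, 11.5 and 11.5 CPM, a log2 fold change of -0.01 ± 0.15 (edgeR, adjusted p = 0.982). The BIX libraries lay on both sides of the DMSO libraries for MEI1. MEIOB, a single-strand DNA binding protein of meiosis whose exons overlap FAHD1, had 9, 13 and 8 counts against 4, 0 and 4 and was not tested. PRDM9, the methyltransferase that sets recombination hotspots, had 4, 12 and 6 counts against 4, 4 and 7. MSH4 had 3, 3 and 3 counts against 3, 3 and 2, and MSH5, which overlaps several neighbours, 1, 2 and 4 against 5, 4 and 5. SPO11 and SPATA22 are not listed.

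STAG3, a subunit of meiotic cohesin (chr7:100177563-100214387), read 8.04, 7.47 and 7.498 CPM with BIX-01294 and 3.61, 2.86 and 4.02 CPM with DMSO. The groups were apart, and the log2 fold change was 1.13 ± 0.17, 2.19-fold (edgeR, adjusted p = 0.000185). Its exons overlap those of CASTOR3P on the opposite strand, which had a log2 fold change of 0.10 ± 0.14, and those of a further protein-coding annotation on the same strand. SMC1B, the meiotic form of the SMC1 cohesin subunit (chr22:45344063-45413619), had 20, 31 and 19 counts with BIX-01294 and 5, 13 and 10 with DMSO. These groups were apart too, and the log2 fold change of 1.33 ± 0.40 reached an adjusted p of 0.019 in edgeR, past 0.05 but not 0.01. Leaving out BIX replicate 2 took this adjusted p to 0.0741 at a log2 fold change of 1.09, and leaving out each of 2 DMSO libraries took it to 0.0921 at 1.03 and to 0.0558 at 1.39. REC8, the kleisin of meiotic cohesin, whose exons overlap IPO4, read 21.0, 20.2 and 22.9 CPM against 19.7, 21.0 and 23.0 CPM. That is a log2 fold change of 0.01 ± 0.10 (edgeR, adjusted p = 0.944), with the groups overlapping throughout. Cohesin members thus gave 1 called gene, 1 past the relaxed threshold and 1 near 0, while RAD21L1 is not listed.

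Of the synaptonemal complex, which joins homologous chromosomes, no member passed either threshold. SYCE2, a central element protein whose exons overlap GCDH, read 6.15, 5.58 and 6.26 CPM against 4.31, 5.03 and 5.09 CPM. Its groups were apart by a small margin, with a log2 fold change of 0.32 ± 0.16 (edgeR, adjusted p = 0.136). SYCP3, an axial element protein whose exons overlap CHPT1, read 2.13, 1.65 and 1.12 CPM against 0.931, 1.29 and 0.769 CPM, a log2 fold change of 0.71 ± 0.35 (edgeR, adjusted p = 0.128) with overlapping groups. SYCP2 had at most 6 counts in a library, SYCE1 and HORMAD1 at most 2 and HORMAD2 at most 4, and none of these was tested. SYCP1 is not listed.

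The piRNA pathway silences transposons in the germ line, and its listed members did not pass the test. TDRKH, a mitochondrial Tudor protein expressed outside the germ line as well, has exons that overlap OAZ3. TDRKH read 25.5, 24.6 and 22.6 CPM with BIX-01294 and 27.4, 25.9 and 27.2 CPM with DMSO. It was the only member whose groups were apart with BIX lower, at a log2 fold change of -0.15 ± 0.09 (edgeR, adjusted p = 0.223). TDRD9, a Tudor-domain helicase, read 3.23, 1.65 and 2.54 CPM against 2.68, 1.70 and 1.66 CPM, with a log2 fold change of 0.29 ± 0.30 (edgeR, adjusted p = 0.478). PIWIL2, a PIWI protein that binds piRNAs, had 16, 17 and 10 counts against 6, 10 and 3, short of the filter. TDRD1, TDRD5, TDRD6, MAEL, ASZ1, PIWIL1, PIWIL4, MOV10L1 and GTSF1 are not listed.

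TKTL1, a transketolase-like enzyme of sugar metabolism that is expressed in testis and in tumours (chrX:154295795-154330350), had 22, 26 and 29 counts with BIX-01294 and 3, 3 and 7 with DMSO. Exons of TKTL1 overlap those of TEX28 on the opposite strand. TKTL1 passed the filter only through BIX, and 2 of the DMSO libraries were at the floor of 3 counts. In CPM it stood at 1.34, 1.53 and 1.71 against 0.175, 0.175 and 0.414, clear of each other, with a log2 fold change of 2.55 ± 0.43 (edgeR, adjusted p = 0.000414). TEX11, an X-linked meiotic gene, read 1.64, 2.23 and 2.18 CPM against 1.40, 1.11 and 2.01 CPM, a log2 fold change of 0.42 ± 0.30 (edgeR, adjusted p = 0.288). TEX14, needed for intercellular bridges of germ cells, read 0.974, 0.588 and 0.827 CPM against 1.05, 0.76 and 0.592 CPM, with a log2 fold change of -0.01 ± 0.39. TAF7L, a testis variant of a general transcription factor subunit, read 0.974, 1.12 and 0.945 CPM against 0.349, 0.643 and 1.30 CPM, with a log2 fold change of 0.40 ± 0.43. The groups overlapped for these 3 genes. TEX15, TEX101, BRDT, MAGEB4 and DPEP3 are not listed.

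The 9 human members with counts too low to test summed to 37, 56 and 37 counts with BIX-01294 and 26, 25 and 30 with DMSO. PIWIL2 gave 43 and MEIOB 30 of the 130 BIX counts, and 19 and 8 of the 81 DMSO counts. The human table holds no gene with fewer than 2 counts in all, so a gene that is not listed has no value here and is not read as 0.

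In mouse NK cells 9 of the 44 listed members were at 0 in every library, namely Sycp1, Tex101, Mael, Asz1, Piwil1, Mov10l1, Taf7l, Sohlh2 and Mageb4, and Rad21l1 is not listed. A total of 0 in libraries of this size puts each of them under 0.0855 CPM by the floor, before and after deletion alike. A further 14 members had counts too low to test and summed to 86 counts in KO and 83 in WT. Ddx4, the human member with the second-lowest adjusted p, had 5, 5 and 4 counts in KO and 8, 10 and 11 in WT. Gtsf1, a piRNA pathway factor, had 5, 6 and 4 counts in KO and 2, 0 and 0 in WT, and Tex11 had 0, 10 and 14 against 0, 0 and 6. Dazl had 8 counts in WT replicate 1 and 0 in the other libraries, and Stra8, the retinoic acid target that opens meiosis, had 6 counts in WT replicate 3 and 0 in the others. Sycp3 and Spata22 had at most 8 and 6 counts in a library, and Msh4, Hormad1, Tdrd6, Tdrd1, Tdrd5, Mei1 and Meiob at most 4.

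The remaining 21 members were tested, 13 having passed the filter through both groups, 4 only through KO, 2 only through WT and 2 through a mix of libraries. None was called at an adjusted p under 0.01 in edgeR, where 0% of the 13189 genes tested were called in either direction. At an unadjusted p under 0.05, 2 members were higher and 2 lower, where 15.8% and 20% of all genes were. At the main thresholds limma-voom called 0 members and DESeq2 called 1, Spo11, higher. Of all genes, DESeq2 called 2.44% higher and 6.67% lower at those thresholds. At an adjusted p under 0.05 with the same fold threshold, edgeR called 1 member higher and 0 lower, where 2.82% and 6.69% of all genes were. There DESeq2 called Spo11 and Tdrd9 higher and Smc1b lower (adjusted p = 0.00155, 0.0447 and 0.0137). Of 16464 genes, DESeq2 called 570 higher and 1668 lower. Groups were apart for 4 members higher in KO (Spo11, Tdrd9, Piwil4 and Dmc1) and 2 lower (Sycp2 and Stag3), against 19.11% and 19.35% of all genes. Tdrd9 and Dmc1 passed the filter only through KO and Sycp2 only through WT, in each case the group in which the gene is high. Spo11, Piwil4 and Stag3 passed through both groups. Over the 13 that passed through both groups the median log2 fold change was 0.08, beside 0.01 for all genes.

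**Figure D2:**
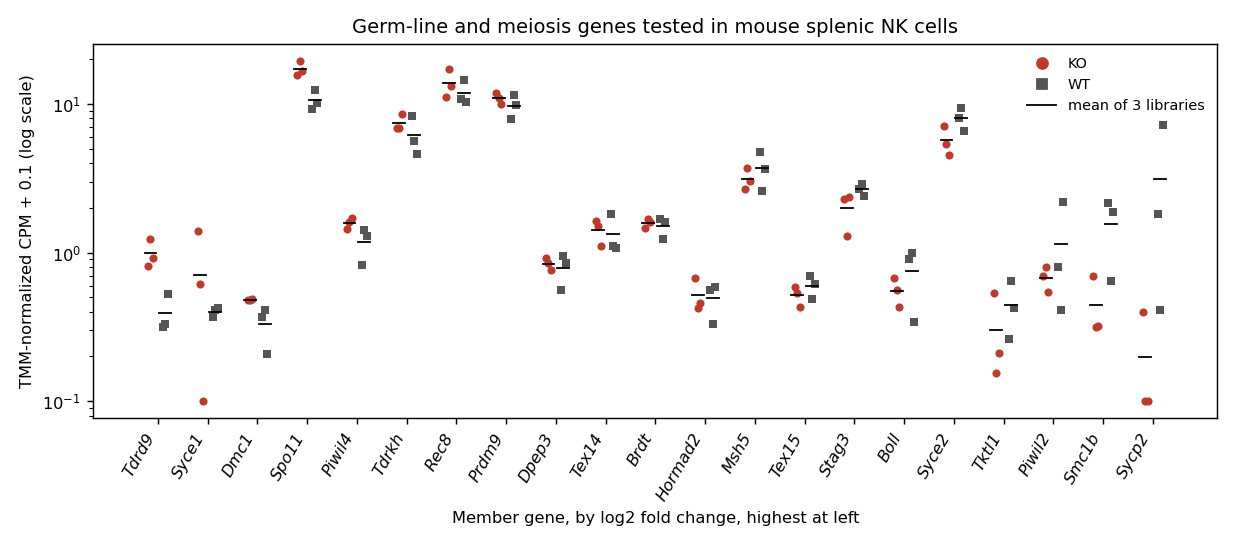
Level of each of the 21 tested members in mouse splenic NK cells, as TMM-normalized CPM plus 0.1 on a log scale, ordered by log2 fold change. Circles are the 3 KO libraries, squares the 3 WT libraries and lines their means, and most members overlap between the groups, with Sycp2 spread widest among WT.

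Spo11, the topoisomerase-like enzyme that makes the double-strand breaks of meiosis (chr2:172977700-172993576 on GRCm38), read 15.4, 19.3 and 16.4 CPM in KO and 9.12, 12.3 and 10.02 CPM in WT. All KO libraries lay above all WT libraries, with a log2 fold change of 0.71 ± 0.15, 1.63-fold (edgeR, adjusted p = 0.0386). WT replicate 2, the WT library with the most Spo11, was also the WT library with the highest NK marker sum, and the median NK marker had a log2 fold change of 0.76, close to that of Spo11. When libraries were scaled to the NK marker list in place of all genes, Spo11 came to -0.05 (edgeR, adjusted p = 0.87), while the median of all genes moved to -0.77. Such scaling shifts every gene by nearly the same amount, so the place of Spo11 relative to other genes was fixed in advance. Over left-out libraries the log2 fold change of Spo11 lay between 0.61 and 0.84. Its edgeR adjusted p passed 0.05 without KO replicate 2 (0.15), KO replicate 3 (0.137), WT replicate 1 (0.101) or WT replicate 3 (0.126), fits in which the calls at 0.05 over all genes went from 372 higher and 882 lower to at most 35 and 64. It was 0.00774 without WT replicate 2. The part of the NK cell share in this difference was not tested.

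Per kilobase of exon, Spo11 had 4.35 CPM with the deletion against 2.67 CPM without, and the hotspot methyltransferase Prdm9 at 2.50 and 2.23 CPM. Prdm9 read 11.7, 10.8 and 9.84 CPM in KO and 7.77, 11.4 and 9.67 CPM in WT, a log2 fold change of 0.17 ± 0.17 (edgeR, adjusted p = 0.497). Dmc1 had 14 counts in each KO library and 10, 8 and 4 in WT, with a log2 fold change of 0.75 ± 0.51 (edgeR, adjusted p = 0.316). It passed the filter only through KO. Msh5, a MutS homologue that stabilises crossovers, read 2.58, 3.58 and 2.91 CPM against 4.67, 2.48 and 3.57 CPM, with a log2 fold change of -0.25 ± 0.28 (edgeR, adjusted p = 0.548). Prdm9 and Msh5 overlapped between the groups.

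Of the structural genes of meiotic chromosomes, 2 had large negative fold changes that missed the threshold. Sycp2, an axial element protein (chr2:178345293-178407685), had 11, 0 and 0 counts in KO and 64, 8 and 263 counts in WT. WT replicate 3 alone held 263 of the 346 counts, and the log2 fold change was -4.89 ± 1.40 (edgeR, adjusted p = 0.0578). It was -3.34 without WT replicate 3 (adjusted p = 0.186), -5.41 without WT replicate 2 (adjusted p = 0.0112) and -9.74 without KO replicate 1, which leaves KO at 0 counts so that the fitted value is no bound. With no filter on low counts the adjusted p was 0.0464. In CPM the order of Sycp2 was WT 3, WT 1, WT 2 and KO 1, and summed B cell markers had the same order. These markers read 1310, 727, 463 and 425 CPM in those libraries and 103 and 84.3 CPM in KO 2 and KO 3. Summed neutrophil markers were near that order. They read 644, 175 and 62.2 CPM in WT 3, WT 1 and WT 2, 70.4 CPM in KO 1, and 1.78 and 2.52 CPM in KO 2 and KO 3. Macrophage, erythroid and T cell sums did not have that order. They read 5506, 412 and 235 CPM in WT 1 and 4238, 401 and 203 CPM in WT 3. For Sycp2 the places of WT 2 and KO 1 rest on 8 and 11 counts. Smc1b (chr15:85064689-85131964) had 22, 8 and 8 counts in KO and 76, 14 and 66 in WT, and KO replicate 1 lay above WT replicate 2. Its log2 fold change was -2.08 ± 0.62 (edgeR, adjusted p = 0.0622), and it was -2.46 without WT replicate 2 (adjusted p = 0.0128) and -2.74 without KO replicate 1 (adjusted p = 0.0445). The libraries with the most Smc1b, WT 1 and WT 3, were also those with the highest sums for B cell, macrophage, neutrophil and T cell markers among WT. Both genes passed the filter only through WT, and the part of other cell types in these values was not tested.

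**Figure D3:**
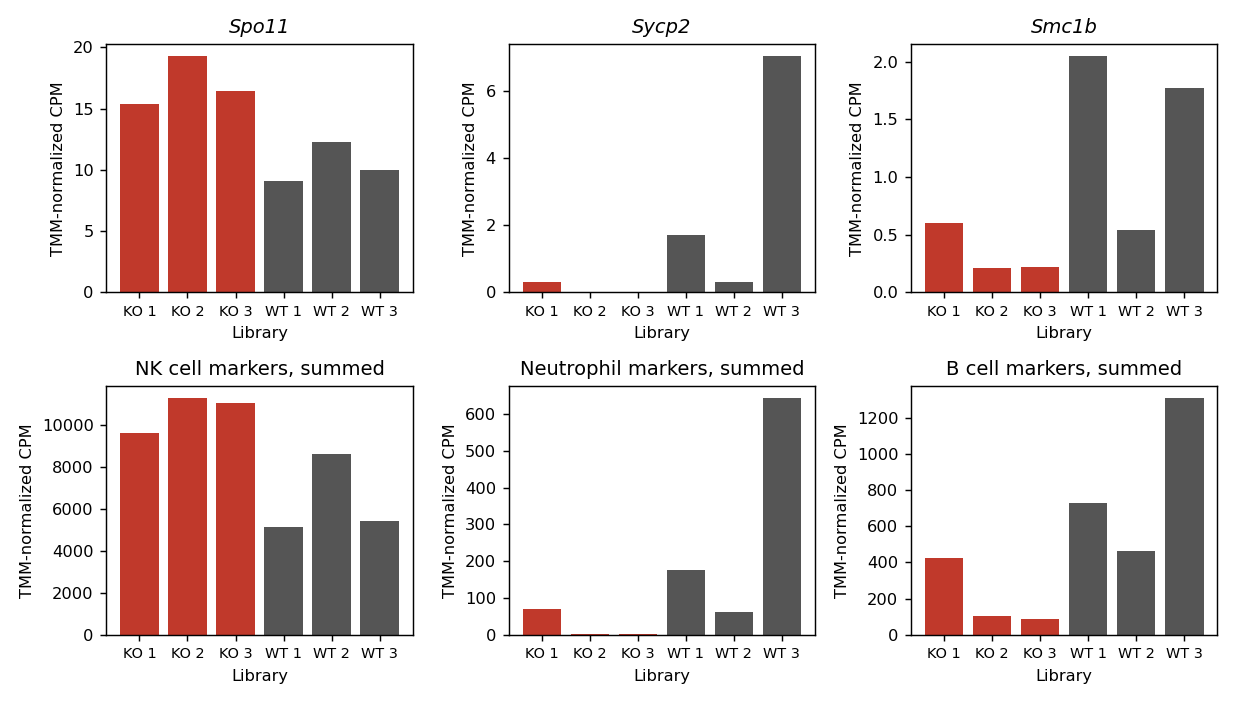
Bars give TMM-normalized CPM from 0 in each of the 3 KO (red) and 3 WT (grey) libraries for Spo11, Sycp2 and Smc1b and for the summed NK cell, neutrophil and B cell markers. Spo11 is highest in KO libraries as the NK sum is, and Sycp2, the neutrophil sum and the B cell sum are all highest in WT 3.

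Syce2 read 6.99, 5.31 and 4.44 CPM in KO and 7.99, 9.23 and 6.50 CPM in WT, a log2 fold change of -0.50 ± 0.22 (edgeR, adjusted p = 0.144). KO replicate 1 lay above WT replicate 3. Stag3 read 2.20, 1.18 and 2.25 CPM in KO and 2.56, 2.79 and 2.31 CPM in WT, apart by a narrow margin, with a log2 fold change of -0.44 ± 0.30 (edgeR, adjusted p = 0.32). Rec8 read 11.04, 17.1 and 13.0 CPM against 10.6, 14.4 and 10.2 CPM, overlapping, with a log2 fold change of 0.23 ± 0.20 (edgeR, adjusted p = 0.451). Syce1 had 48, 19 and 0 counts in KO and 10, 8 and 12 in WT, so that KO spanned the whole range of WT. Hormad2 had 21, 12 and 13 counts against 17, 6 and 18.

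In the piRNA pathway Tdrd9 had the largest positive log2 fold change of the tested members. It had 26, 42 and 30 counts in KO and 8, 6 and 16 in WT, apart between the groups, with a log2 fold change of 1.57 ± 0.43 (edgeR, adjusted p = 0.0533), and it passed the filter only through KO. Over the alternatives other than scaling to NK markers its adjusted p lay between 0.0447 and 0.184. Piwil4, whose exons overlap an antisense gene, read 1.33, 1.51 and 1.62 CPM in KO and 0.728, 1.32 and 1.18 CPM in WT, with a log2 fold change of 0.47 ± 0.32 (edgeR, adjusted p = 0.315). Piwil2 had 22, 26 and 16 counts in KO and 26, 8 and 78 in WT, where WT replicate 3 held the most counts. Tdrkh, whose exons overlap Oaz3, read 6.80, 6.76 and 8.39 CPM against 8.17, 5.51 and 4.49 CPM, a log2 fold change of 0.27 ± 0.24. Piwil2 and Tdrkh overlapped between the groups.

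The testis-expressed members left, Tex14, Tex15, Boll, Brdt, Dpep3 and Tktl1, overlapped between KO and WT in each case. Brdt, a bromodomain protein of spermatocytes, read 1.36, 1.59 and 1.51 CPM in KO and 1.59, 1.12 and 1.504 CPM in WT. Tktl1 had 16, 2 and 4 counts against 6, 14 and 12, with a log2 fold change of -0.73 ± 0.81 (edgeR, adjusted p = 0.543). Boll, a translation factor of the DAZ family, had 21, 17 and 12 counts against 30, 23 and 9. Dpep3 had 30, 28 and 24 counts against 17, 22 and 28, Tex15 had 18, 16 and 12 against 22, 10 and 19, and Tex14 had 56, 52 and 37 against 64, 26 and 36. None of the 6 had an adjusted p under 0.5.

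Tested in both species were 9 members, of which 3 (DMC1, REC8 and TDRD9) had log2 fold changes of the same sign and 6 of opposite sign. Several passed the filter only through the group in which they are high, namely SMC1B and TKTL1 through BIX, mouse Dmc1 and Tdrd9 through KO and mouse Smc1b through WT, so this tally is a description only. Of the human members called, DMC1 gave 0.84 in NK92MI and 0.75 in mouse, STAG3 gave 1.13 and -0.44, and TKTL1 gave 2.55 and -0.73. SMC1B gave 1.33 and -2.08. For STAG3 the groups were apart higher in human, where 24.1% of all genes were, and apart lower in mouse, where 19.35% were. The mouse margin was narrow, and the mouse difference had an adjusted p of 0.32 in edgeR. The difference between the species was not tested, since the experiments differ in species, in agent and in cell source, which cannot be told apart. Spo11, called at 0.05 in mouse, is not listed in human.

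**Figure D4:**
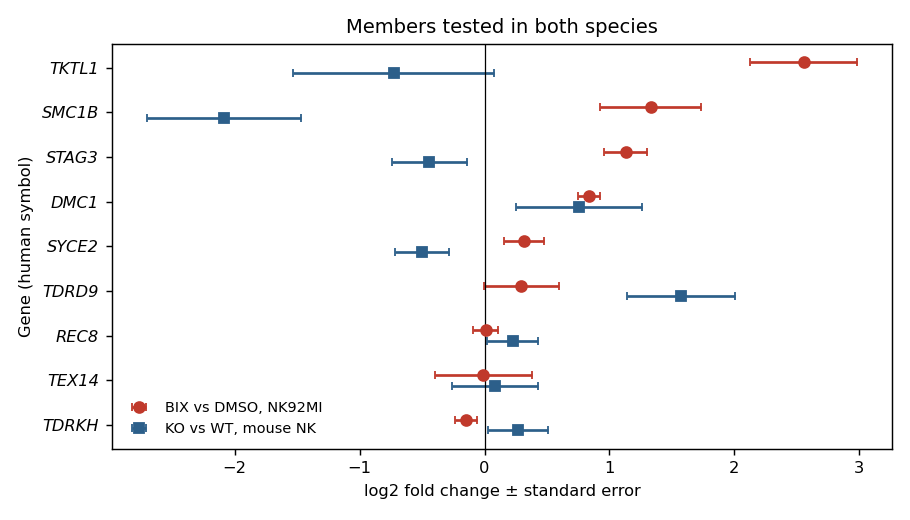
log2 fold change with its standard error for the 9 members tested in both species, circles for BIX against DMSO in NK92MI and squares for KO against WT in mouse NK cells. TKTL1, SMC1B and STAG3 are positive in human and negative in mouse, and DMC1 is positive in both.

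The machinery that silences germ-line genes was read from 27 genes of the E2F6 and PCGF6 complex, the H3K9 methyltransferases with their partners, and DNA methylation. In NK92MI all 27 were tested, 2 were called higher and 3 lower, where 6.24% and 5.43% of all genes were, and their median log2 fold change was 0.02. At an unadjusted p under 0.05, 7 were higher and 12 lower, where 22.9% and 23.2% of all genes were. RYBP, a subunit of the complex, read 116, 115 and 110 CPM with BIX-01294 and 68.6, 65.2 and 68.2 CPM with DMSO, a log2 fold change of 0.76 ± 0.06 (edgeR, adjusted p = 1.41e-06). YAF2, its homologue, gave 0.70 ± 0.07 (edgeR, adjusted p = 1.03e-05). DNMT3B, a DNA methyltransferase, read 13.1, 14.9 and 13.7 CPM against 30.9, 26.8 and 30.3 CPM, a log2 fold change of -1.08 ± 0.10 (edgeR, adjusted p = 3.49e-06). WIZ, a zinc finger partner of EHMT2, gave -0.50 ± 0.07, at the edge of the fold threshold, and DESeq2 called 2 lower, without it. EHMT2 itself was the other gene called lower. In mouse none of the 27 was called at 0.01 in edgeR or limma-voom, and edgeR called 0% of all genes there. At an unadjusted p under 0.05, 2 were higher and 2 lower, where 15.8% and 20% of all genes were. DESeq2 called 2 lower at 0.01, where it called 6.67% of all genes lower. At an adjusted p under 0.05 edgeR called 0 higher and 2 lower, where 2.82% and 6.69% of all genes were, Ehmt2 and Uhrf1, a factor that maintains DNA methylation, which read 23.0, 23.4 and 21.1 CPM in KO and 33.4, 32.8 and 33.0 CPM in WT, a log2 fold change of -0.56 ± 0.09 (edgeR, adjusted p = 0.0269).

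**Figure D5:**
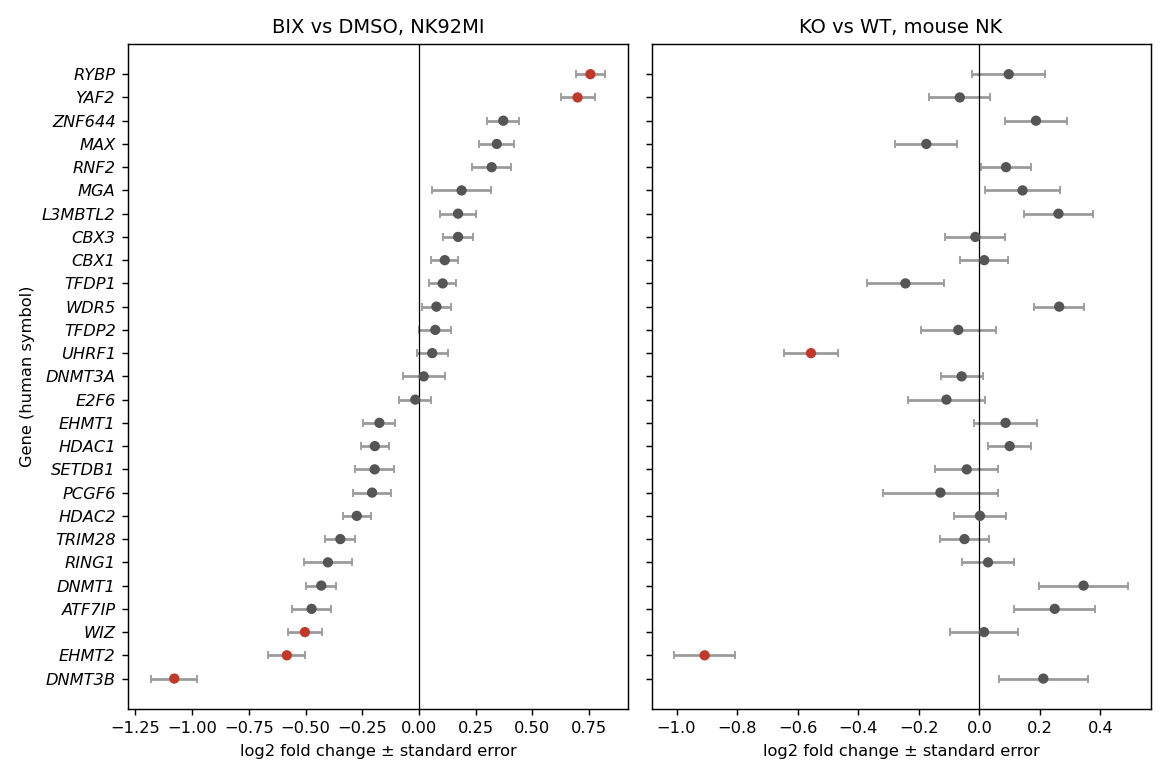
log2 fold change with its standard error for 27 genes of the silencing machinery in NK92MI (left, red where called at an adjusted p under 0.01) and in mouse NK cells (right, red where called at an adjusted p under 0.05), on separate x axes and in the order of the human values. DNMT3B, EHMT2 and WIZ are red and negative in human, RYBP and YAF2 red and positive, and Ehmt2 and Uhrf1 red and negative in mouse.

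Outside the 45 members, 30 further meiosis genes were read, of which 20 are listed in human and 14 were tested. Their median log2 fold change was 0.22, with 3 called higher and 0 lower in edgeR, DESeq2 and limma-voom alike, where edgeR called 6.24% and 5.43% of all genes. At an unadjusted p under 0.05, 5 were higher and 3 lower, where 22.9% and 23.2% of all genes were. PSMC3IP, a partner of DMC1 in strand exchange, read 47.7, 51.7 and 56.0 CPM with BIX-01294 and 30.3, 34.1 and 31.7 CPM with DMSO, a log2 fold change of 0.69 ± 0.09 (edgeR, adjusted p = 4.06e-05). CCNB1IP1, a crossover factor, gave 0.74 ± 0.08 (edgeR, adjusted p = 1.8e-05), and MEIOC, which keeps germ cells in meiosis, gave 0.82 ± 0.17 (edgeR, adjusted p = 0.00237). In mouse 9 of these genes were tested and none was called at 0.01 or 0.05 by edgeR, DESeq2 or limma-voom. At an unadjusted p under 0.05, 0 were higher and 2 lower, where 15.8% and 20% of all genes were. Ccnb1ip1 and Meioc were at 0 in all 6 mouse libraries.

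Of 36 further germ-line genes and cancer-testis antigens, 31 are not listed in human and 1 was tested. That gene, TEX19, which protects germ cells from transposons, read 1.03, 1.65 and 1.77 CPM with BIX-01294 and 3.26, 3.39 and 3.31 CPM with DMSO. It was called lower, at a log2 fold change of -1.16 ± 0.25 (edgeR, adjusted p = 0.00281). The 4 not tested summed to 58 counts against 38. In mouse 17 of these genes were at 0 in every library, and of the 2 tested, Nanos3 and Sohlh1, neither was called by any of the 3 tools. Of these 2, 1 was higher at an unadjusted p under 0.05, where 15.8% of all genes were. Of 15 genes of haploid sperm, 3 were tested in human and 1 in mouse, and none was called by any of the 3 tools. At an unadjusted p under 0.05, 1 of them was higher and 1 lower in human, where 22.9% and 23.2% of all genes were, and 0 in mouse.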

How the data were processed

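The authors trimmed reads with fastp 0.23.4, aligned them with STAR 2.7.11b, allowing 2 mismatches, on GRCm38 for mouse and GRCh38 for human, and counted with HTSeq 2.0.3. The deposited values are whole-number counts by symbol, not normalized. The annotation release and the strand setting are not given in the sources used here. The KO samples' genotype label reads Ezh2-KO, and they were grouped by title. Human control columns, named CON, were not matched to numbered DMSO samples.

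Each species was fitted alone in R 4.3.3 with edgeR 4.0.16 (TMM, filterByExpr, quasi-likelihood test, Benjamini-Hochberg adjustment over all genes tested). The SE is the log2 fold change divided by the root of F. CPM are TMM-normalized, with 3 libraries a group. With 3 against 3, the exact permutation test cannot go below p = 0.1. All members were reported, and genes of other lists by the call thresholds. Members and lists were chosen with earlier results of these data known. Alternatives used DESeq2 1.42.0, limma 3.58.1, other scalings, filters, thresholds and left-out libraries, and the code was tested on simulated data. Library totals, in the report, leave counting error small except for the lowest counts. Promoters came from RefSeq, positions from GENCODE on the same builds.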

Additional observations from a re-analysis of the deposited data

How the results depend on the processing

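In NK92MI 4 members were called higher and 0 lower under each alternative in scaling, tool and left-out library. The exceptions were 3 higher where a mean CPM of at least 1 was asked for, which removes TKTL1, and 5 higher at both looser thresholds, which add SMC1B. Of 164 values of single human members under alternatives, 156 kept their direction and side of the threshold. The 8 that reversed were near 0. TEX14 ranged from -0.19 to 0.23, REC8 from -0.043 to 0.069 and MEI1 from -0.21 to 0.11 over left-out libraries, and REC8 gave -0.0024 with library totals only. No paired analysis was possible for NK92MI because no label ties the control columns, named CON, to the numbered DMSO samples.

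In mouse the count of members higher went from 0 to 1, Spo11, with DESeq2 (adjusted p = 0.00155), with the replicate block (adjusted p = 0.00871), and with both looser thresholds, and lay between 0 and 1 over left-out libraries. Deviations of same-numbered samples from their group means correlated at 0.354, 0.486 and -0.205, and KO replicate 3 correlated best with WT replicate 2. The labels do not say whether the numbers pair animals, and so few correlations cannot decide it. The block took the adjusted p of Sycp2 to 0.0259 and of Smc1b to 0.0235. Under the replicate block 237 genes were called higher and 582 lower, with DESeq2 401 and 1098, and without WT replicate 2 417 and 746, against 0 and 0. Scaling to the NK cell marker list, chosen after seeing the data, moved the median of all genes to -0.77. It called 3 of 21 members lower (Sycp2, Smc1b and Syce2), where it called 22.5% of all genes lower, and turned Spo11 to -0.049, Tex14 to -0.73, Tdrkh to -0.54, Piwil4 to -0.27, Hormad2 to -0.74, Rec8 to -0.525, Brdt to -0.75, Prdm9 to -0.57 and Dpep3 to -0.61. Syce1 gave -0.56 with limma-voom. Over left-out libraries Tex14 ranged from -0.075 to 0.41, Piwil2 from -1.26 to 0.16, Hormad2 from -0.23 to 0.23, Brdt from -0.056 to 0.17, Dpep3 from -0.11 to 0.30 and Syce1 from -0.23 to 1.59. The causes were not tested. Depth limits the members with counts near the floor of 3.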

Other observations

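Low counts in the mouse table were mostly even. Of the values between 1 and 9, 88.2% were even numbers in mouse and 42.1% in human. The same is seen in members, where Dmc1 had 14, 14, 14, 10, 8 and 4 counts and Tktl1 16, 2, 4, 6, 14 and 12. With counts halved and rounded up, an alternative chosen after seeing the data, Spo11 gave a log2 fold change of 0.69 (edgeR's quasi-likelihood test, adjusted p = 0.0373) and Tdrd9 1.53 (adjusted p = 0.053).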
